A study of Homo sapiens with 20 samples.

Results

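The comparison covers HEK293 cells that carry a doxycycline-inducible fusion of EGFP and human ZFP36, with the transgene switched on in 5 arrays and left off in 5. HEK293 is a line derived from human embryonic kidney, here its Flp-In T-REx form, in which a single integration site takes up the transgene and a tetracycline-controlled promoter drives it. Induced cells received 1 µg/ml doxycycline for 16 h, and mock-induced cells of the same stable line received water. RNA was read on Affymetrix U133 Plus 2.0 arrays, where a gene is measured by 1 or more probe sets. All probe sets that name exactly 1 gene were considered, the brightest stood for its gene, and genes with a mean above 4.5 in either group were kept. That rule left 10669 genes of 19353 with such a probe set, and 10 of the 20 arrays of the series belong to these groups. The other 10 arrays are parental cells without the transgene, 5 with doxycycline and 5 with vehicle, and serve as the background that the drug alone gives.

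ZFP36, also called tristetraprolin, is a zinc-finger protein that binds AU-rich stretches in the 3′ UTRs of mRNAs and recruits deadenylases, so that a bound mRNA loses its poly(A) tail and is degraded. It is best known for shortening the life of cytokine mRNAs such as TNF in macrophages. A gain of ZFP36 is therefore looked for first in mRNAs that fall, while mRNAs that rise can lie any number of steps away from the protein.

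Per the study's methods, each sample pooled flasks of 1 treatment, and the experiment was repeated on separate days. Induced cells were sorted for green fluorescence, and mock-induced cells passed a sort that left fluorescent cells out. After doxycycline the flasks were also less densely grown, with more cells rounded up or afloat. The fusion protein, the sort gate and the cell density cannot be told apart in these arrays. The sorted cells are a bulk sample, so that fewer cells with an mRNA and less of it per cell cannot be told apart either. The level of ZFP36 itself was 5.42 ± 0.49 with and 5.36 ± 0.43 without induction (log2 intensity, mean ± SD, n = 5 arrays each). None of the sources used here says whether its probe set lies in the transgene's transcript, and it is therefore no check of the induction.

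The filter at 4.5 had no gap around it. The genes just inside it were LINC00965, ARHGAP4 and FANK1, with a higher group mean of 4.502 (LINC00965), 4.502 (ARHGAP4) and 4.503 (FANK1), and just outside were PLXDC1 (4.4996), SUGCT (4.494) and ACOXL (4.494).

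Many genes passed the threshold, and their number depended on the setting. Among 10669 genes, 5700 passed a Bonferroni-adjusted p under 0.01 in limma (53.4%), of which 2527 fell (23.7%) and 3173 rose (29.7%). The arrays of the groups did not overlap for 8638 genes (81.0%), all called genes among them. Differences below are log2, induced minus mock-induced, and "passed" refers to this threshold. The median difference over all tested genes was 0.21, and the smallest difference that passed was 0.40 in size. Leaving out each array in turn gave 4985 to 5266 calls. The count was 4053 with the replicate number as a block and 2913 with a variance of its own for each group. At a Benjamini-Hochberg adjusted p under 0.05 in limma it was 9440, so a gene that did not pass is not shown to be unchanged.

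**Figure D1:**
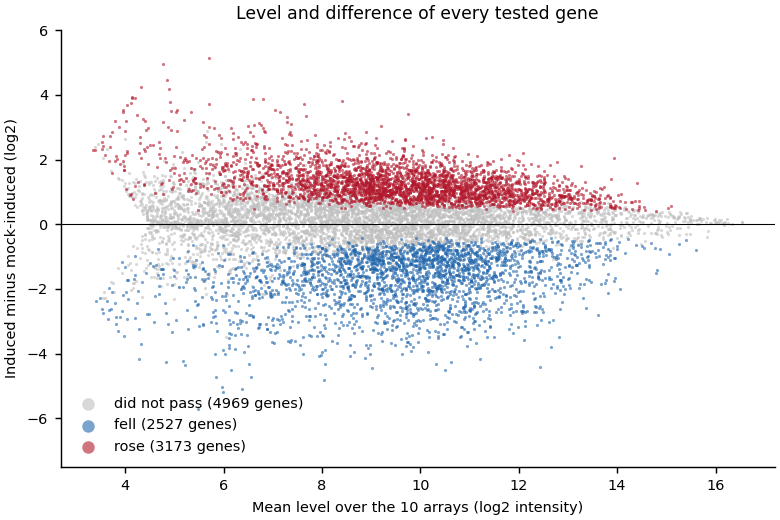
Mean level of each of the 10669 tested genes over the 10 arrays (horizontal axis, log2 intensity) against its difference, induced minus mock-induced (vertical axis, log2). Blue points fell (2527 genes), red points rose (3173) and grey points did not pass (4969); falls reach further from 0 than rises at middle and high levels.

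Falls were fewer but deeper than rises. Among the 10187 genes with a mean above 4.5 in both groups, where a fold is measured on both sides, 1876 fell and 2017 rose by more than 2-fold. Beyond 4-fold the count was 671 falls against 207 rises, beyond 8-fold 159 against 16, and beyond 16-fold 15 against 0. Averaging the probe sets of a gene gave 404 falls and 121 rises beyond 4-fold, and with the arrays centred on poly-A control transcripts 997 falls and 90 rises. The median fold was 2.86 among all falls and 2.29 among all rises.

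Doxycycline alone moved little in parental cells. Over the same genes the SD of the log2 differences was 0.102 in parental cells and 1.25 in the EGFP-ZFP36 line, and the median size was 0.0481 against 0.848. None of the 10669 genes passed in parental cells with limma (0 also at a Benjamini-Hochberg adjusted p under 0.05, and 231 at an unadjusted p under 0.05, 2.17%). The response itself differed between the lines for 5210 genes (48.8%) in a limma interaction test over the 20 arrays, and these include 2320 of the 2527 falls and 2672 of the 3173 rises. With the arrays centred on the hybridization controls, 3295 genes passed that test.

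**Figure D2:**
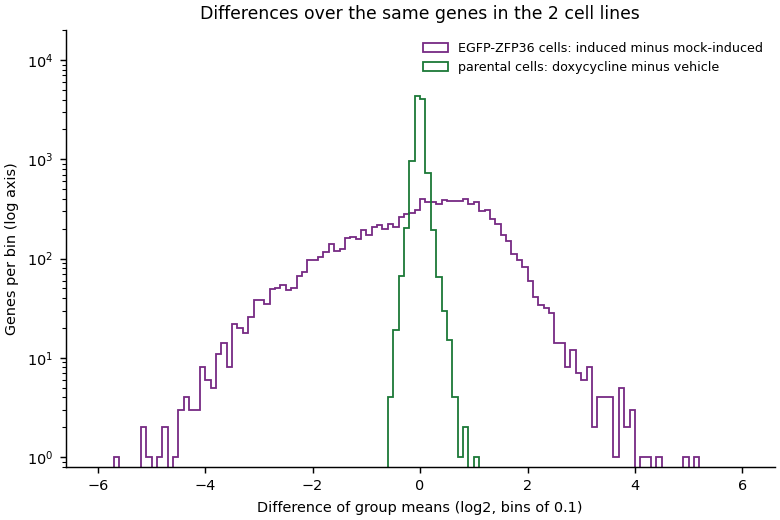
Number of genes per 0.1-wide bin (vertical axis, log scale) of the difference of group means (horizontal axis, log2) for induced minus mock-induced EGFP-ZFP36 cells and for doxycycline minus vehicle in parental cells, over the same 10669 genes. The parental curve is narrow (SD 0.102) and the EGFP-ZFP36 curve wide (SD 1.25), with a longer arm on the side of the falls.

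The share of genes called depended on how brightly they were read. Among genes with a mean level of at most 6, 11.2% fell and 15.5% rose, and between 10 and 12 it was 31.4% and 35.5%. Above 14 it was 8.25% and 10.2%, and the part of the ceiling of the arrays, at 16.64, in these shares was not tested. As deposited, long non-coding RNAs leaned the other way from mRNAs. Of 337 tested, 73 fell and 36 rose with a median of −0.19, whereas of 10213 protein-coding genes 2446 fell and 3114 rose with a median of 0.23. The non-coding RNAs were read at a lower median level, 6.43 against 9.38, and the part of level in this difference was not tested. With the arrays centred on poly-A control transcripts the median over all tested genes was −0.11. Whether the classes still lean apart in sign there was not tested.

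Genes that fell spanned more of the chromosome than genes that rose. The median span in the RefSeq gene table was 45.6 kb for falls, 28.4 kb for rises and 29.9 kb for genes that did not pass. In the shortest of 6 equal classes (up to 8.61 kb) 16.2% fell and 30.1% rose, and in the longest (from 116 kb) 29.9% fell and 26.2% rose. The median difference went from 0.33 to −0.03 between these classes. The median level of the classes lay between 8.88 and 9.68. Span is given as a description, since genes are not replicates, and 3′ UTR length was not used here.

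The scale of the arrays bears on every direction. The poly-A controls are meant to be spiked into RNA before labelling, a step that the study's methods do not mention. They averaged 8.06 ± 0.21 with and 7.74 ± 0.16 without induction (two-sided exact permutation p = 0.0238, n = 5 each). The hybridization controls averaged 12.19 ± 0.10 and 12.07 ± 0.12 (exact permutation p = 0.143). In parental cells, where no gene passed, the poly-A controls averaged 8.02 with doxycycline and 7.70 with vehicle. A similar offset was thus also read without the transgene. Single parental vehicle arrays ran from 7.07 to 8.44. Falls were 2527 of the 5700 calls as deposited. Centring on the hybridization controls gave 2609 falls and 2705 rises with a median difference of 0.10 over all genes, and centring on the poly-A controls gave 3256 falls and 2004 rises with a median of −0.11. No gene called as deposited was called the other way under either centring. Counts of gene groups are read against 23.7% falls and 29.7% rises over all genes and medians against 0.21, and where the order of falls and rises or the sign of a median turns with the arrays centred on the poly-A controls, the value on that poly-A scale is added. On the hybridization scale the medians of the lists for coat proteins (−0.01), general transcription factors (−0.03), NRF2 targets (−0.04), lipid synthesis (−0.03) and A, C and CaM kinases (−0.05) also lay under 0. Falls and rises there were 14 and 9 for nucleotide metabolism, 10 and 9 for ESCRT and retromer, 10 and 9 for iron and heme, 8 and 7 for NRF2 targets, 7 and 6 for ion channels and 6 and 5 for axon guidance, and equal in number for peroxisome, acetylation, mediator and RNA methylation genes. Where a gene is said not to pass with a separate spread for each group, each group had its own variance, estimated gene by gene without moderation. For actin, the 3′ minus the 5′ signal was 1.31 ± 0.13 with and 1.52 ± 0.14 without induction (exact permutation p = 0.0476). Its part in the calls was not tested.

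The deepest falls among genes measured in both groups included mRNAs of secreted, mitochondrial and signalling proteins. POGLUT3, a glucosyltransferase of the endoplasmic reticulum, read 10.50, 10.44, 10.50, 10.28 and 10.52 in the 5 mock-induced arrays. In the induced arrays it read 5.94, 5.99, 5.62, 4.40 and 6.14, all of them far below. It fell 28.4-fold (log2 difference −4.83, SE 0.274, Bonferroni-adjusted p = 2.13e-05 in limma). PEG10, an imprinted gene derived from a retrotransposon, read 12.69, 12.72, 12.71, 12.77 and 12.84 in mock-induced and 8.49, 8.24, 8.18, 8.04 and 8.28 in induced arrays, a 22.6-fold fall (−4.50, SE 0.0752). The fall was many times the spread within either group. CPE, the carboxypeptidase that trims peptide hormones, went from 11.19, 11.10, 11.27, 11.09 and 11.53 to 6.58, 6.79, 7.27, 6.25 and 7.03 and fell 21.9-fold (−4.45, SE 0.169).

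TWSG1, a secreted protein that binds bone morphogenetic proteins, read 12.53, 12.46, 12.46, 12.46 and 12.53 in mock-induced and 8.23, 8.10, 8.39, 8.19 and 7.85 in induced arrays, a fall of 20.2-fold (−4.34, SE 0.0852, Bonferroni-adjusted p = 2.03e-10 in limma). HIGD1A, a hypoxia-induced protein of the mitochondrial inner membrane, read 12.79, 12.79, 12.78, 12.68 and 12.75 and then 8.60, 8.34, 8.41, 8.51 and 8.62, and fell 19.2-fold. KCTD12, an auxiliary subunit of GABA-B receptors, went from 13.26, 13.33, 13.32, 13.20 and 13.40 to 9.11, 9.27, 9.20, 8.92 and 9.14, an 18.1-fold fall. In all of these genes the 2 groups of arrays lay far apart, and the lack of overlap was a condition of their choice. The zinc importer SLC39A10 fell 16.8-fold from 10.61 ± 0.087 to 6.53 ± 0.24 (mean ± SD, n = 5), the kinase STK39, which acts on cation-chloride cotransporters, 17.8-fold from 10.95 ± 0.10 to 6.80 ± 0.61, and MOB4, a member of the striatin phosphatase complex, 19.9-fold from 10.22 ± 0.082 to 5.91 ± 0.74. Cytochrome c (CYCS), at −4.42, completes the 10 largest. POGLUT3, CPE, MOB4 and STK39 did not pass with a separate spread for each group.

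Rises of the same rank started lower, as a rise starts at its lower group and a fall at its higher group. That order follows from the choice of large changes. CHGB, which encodes chromogranin B, a protein of secretory granules, read 5.18, 3.89, 4.34, 5.13 and 4.77 in mock-induced arrays, on both sides of the 4.5 line, and 8.66, 8.39, 8.51, 8.68 and 8.37 in induced arrays. It rose 14.5-fold (3.86, SE 0.218, Bonferroni-adjusted p = 1.99e-05 in limma). OSBPL7, a lipid-binding protein of the oxysterol-binding family, rose by as much, from 5.60, 5.02, 4.65, 4.71 and 4.38 to 8.33, 8.88, 8.68, 8.92 and 8.87. In both genes the mock-induced arrays scattered more than the induced ones. DEPTOR, a brake on mTOR kinase, went from 5.76, 5.81, 5.43, 5.79 and 6.05 to 9.62, 9.37, 9.63, 9.47 and 9.36 and rose 13.2-fold. ERBB3, a receptor of the epidermal growth factor family, read 5.73, 6.22, 6.09, 5.92 and 6.03 and then 9.52, 9.08, 9.39, 9.32 and 9.37, a 10.1-fold rise. HEYL, a transcriptional repressor downstream of Notch, rose 8.97-fold from 5.71 ± 0.10 to 8.87 ± 0.25, and the receptor for interleukin 27, IL27RA, 9.95-fold from 5.63 ± 0.17 to 8.95 ± 0.10. In each of these genes every induced array stood above every mock-induced one, which was a condition of their choice. BTN3A1, a butyrophilin that binds phosphoantigens, rose by 3.46, FAM161B by 3.52, and IFIT1 and SESN2, of the interferon and stress responses, by 3.80 and 3.40. With every probe set of a gene averaged in, the difference was 1.86 for DEPTOR, 1.42 for ERBB3, 2.05 for IL27RA and 1.58 for HEYL. CHGB, OSBPL7, BTN3A1 and HEYL did not pass with a separate spread for each group.

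**Figure D3:**
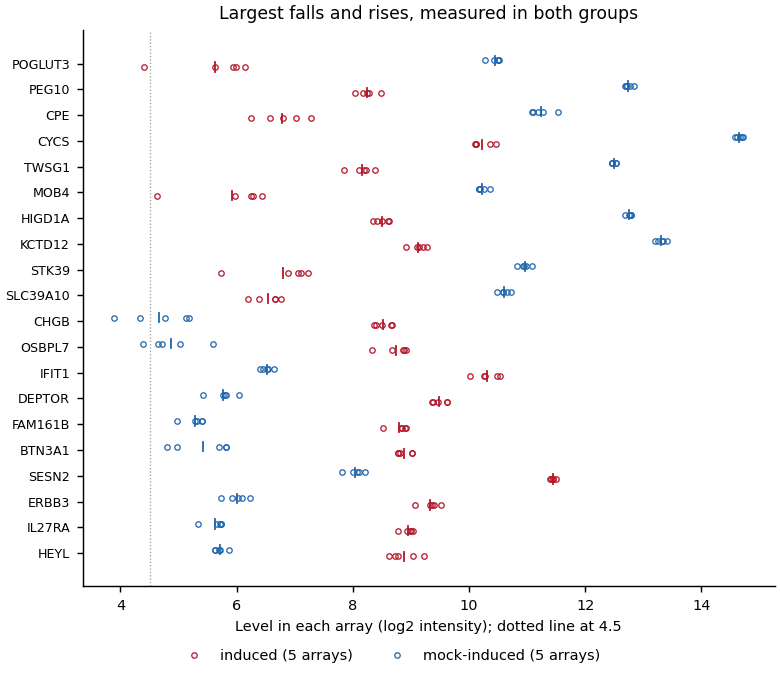
Level in each array (log2 intensity, horizontal axis) of the 10 largest falls, from POGLUT3 to SLC39A10, and the 10 largest rises, from CHGB to HEYL, among genes measured in both groups. Circles are the 5 induced (red) and 5 mock-induced (blue) arrays, ticks their means; the groups of all 20 genes stand apart, the falls start between 10 and 15 and the rises end between 8 and 12.

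Some genes went out of or came into the measurable range altogether. In 21 genes all 5 mock-induced arrays read above 6 and all 5 induced arrays under 4.5, and in 16 genes it was the reverse. PTPN9, a phosphatase with a lipid-binding domain, read 7.96, 7.98, 8.25, 7.83 and 7.90 in mock-induced and 4.25, 4.20, 4.15, 4.23 and 4.46 in induced arrays, a fall of at least 11.2-fold. TFPI2, a secreted inhibitor of serine proteases, went from 7.75, 7.66, 7.21, 7.45 and 7.54 to 4.44, 4.01, 4.32, 4.44 and 3.91, at least 8.12-fold lower. TRMT10A, a tRNA methyltransferase, fell from 8.38, 8.02, 8.15, 8.32 and 8.13 to 3.68, 3.24, 3.27, 3.94 and 3.29, at least 13.01-fold. Since 4.5 is the line below which a level is not told from background, these folds set the higher group's mean against 4.5. INSM1, STXBP6, WIPF1, SLC25A21 and PHLDA2, at mock-induced means of 8.33 to 8.92, are the rest of the 8 brightest of the 21. In parental vehicle cells 14 of the 21 also read above 6 on average, but TFPI2 read 4.34 ± 0.25 there.

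Among the genes that appeared, SNCAIP, the alpha-synuclein partner synphilin-1, read 4.46, 3.47, 4.05, 3.94 and 3.30 in mock-induced and 7.70, 7.56, 7.29, 7.80 and 7.47 in induced arrays, at least 8.37-fold higher. ABHD4, a hydrolase of N-acyl phospholipids, went from 4.30, 4.21, 4.36, 4.40 and 4.33 to 7.43, 7.32, 7.26, 7.34 and 7.12, at least 6.93-fold. RAPGEF3, the cyclic-AMP-gated exchange factor EPAC1, went from 3.82, 3.61, 3.35, 3.50 and 3.67 to 6.81, 6.98, 7.32, 7.19 and 7.08, at least 5.96-fold. That no induced array of these genes came close to the 4.5 line follows from how they were chosen. RHEBL1, a relative of the mTOR activator RHEB, rose at least 5.60-fold and SUSD4, a membrane protein that binds complement, at least 4.97-fold, with CHAC1, DISP2 and INHBE the other members of the 8 brightest. Parental vehicle cells read under 4.5 on average for all 16. On the mean of all probe sets per gene, the difference was −2.75 for INSM1, −1.24 for STXBP6, −1.80 for WIPF1, −1.90 for PHLDA2, 1.63 for SNCAIP, 1.50 for ABHD4 and 1.89 for RAPGEF3. INSM1, STXBP6, WIPF1, SLC25A21, PHLDA2, CHAC1, SNCAIP and SUSD4 did not pass with a separate spread for each group.

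**Figure D4:**
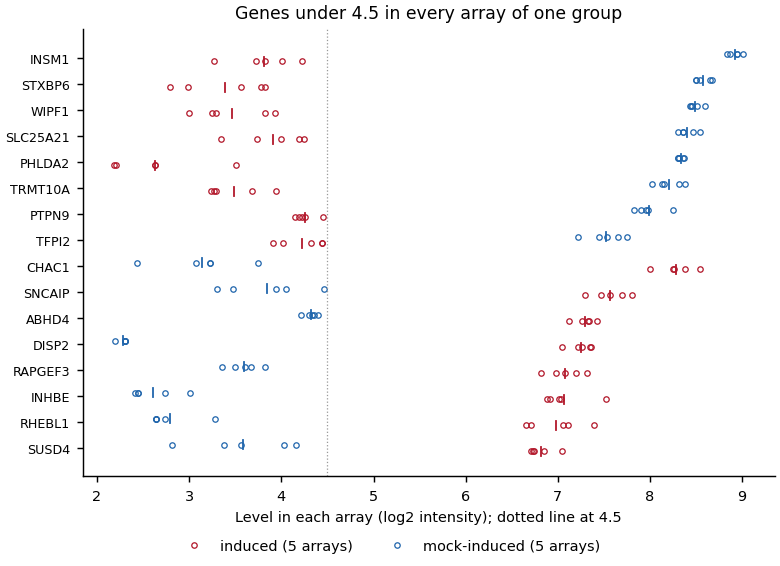
Level in each array (log2 intensity, horizontal axis) of 8 genes that left the measurable range (INSM1 to TFPI2) and 8 that entered it (CHAC1 to SUSD4). Red circles are induced and blue circles mock-induced arrays, 5 each, ticks are means and the dotted line marks 4.5; every gene has 1 group wholly below that line and the other above 6.

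Above a level of 14 most genes did not pass, and the 6 brightest falls and 6 brightest rises were, except for C1QBP, of less than 2-fold. HNRNPA2B1, an RNA-binding protein of splicing and RNA transport, read 15.91, 16.06, 16.05, 15.94 and 16.07 in mock-induced and 15.18, 15.23, 15.34, 15.06 and 15.16 in induced arrays and fell 1.76-fold. The histone variant H2AZ1 fell 1.53-fold (−0.61, SE 0.0391), the nuclear transport GTPase RAN 1.41-fold, OAZ1, the inhibitor of ornithine decarboxylase, 1.90-fold, the signal recognition particle protein SRP9 1.68-fold and the mitochondrial protein C1QBP 2.69-fold. Upward, the translation initiation factor subunit EIF3L read 14.80, 14.84, 14.82, 14.85 and 14.81 and then 15.37, 15.40, 15.33, 15.36 and 15.40, a 1.47-fold rise. MORF4L1, a chromodomain protein of histone acetylation complexes, rose by 0.51, the oxidative stress protein PARK7 by 0.41, RPL22 of the large ribosomal subunit by 0.45, XRCC6 of DNA end joining by 0.54 and the splicing regulator RNPS1 by 0.73. When the probe sets of each gene were averaged, the difference was −0.53 for HNRNPA2B1 and −1.75 for RAN, and XRCC6 (0.24) did not pass. When probe sets that end in _s_at or _x_at were left out, the difference was −3.01 for RAN, and HNRNPA2B1 (−0.68) did not pass. HNRNPA2B1, RAN, SRP9, C1QBP and PARK7 did not pass with a separate spread for each group. Centred on the poly-A controls, the difference was −0.82 for RAN and −0.93 for H2AZ1, and EIF3L (0.23), MORF4L1 (0.19), PARK7 (0.09), RPL22 (0.13), XRCC6 (0.22) and RNPS1 (0.41) did not pass. RAN did not pass without mock-induced replicate 1, 2 or 4 (−0.50 to −0.49). MORF4L1 did not pass without induced replicate 2, 4 or 5 or without mock-induced replicate 1, 2, 4 or 5 (0.49 to 0.52). PARK7 did not pass without induced replicate 1, 2, 3, 4 or 5 or without mock-induced replicate 1, 2, 3, 4 or 5 (0.39 to 0.42). RPL22 did not pass without induced replicate 1, 2, 3, 4 or 5 or without mock-induced replicate 1, 2, 3, 4 or 5 (0.44 to 0.47).

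For 627 genes the 95% interval of the difference lay within −0.25 to 0.25. The brightest of them were RPLP1 (0.06, SE 0.0379), RPL37 (0.07), RPS16 (0.01), RPL39 (0.04) and RPS24 (0.07), all of the cytosolic ribosome, and COX1, a mitochondrially encoded subunit of cytochrome oxidase (−0.03, SE 0.0577). Their mock-induced means of 16.16 to 16.51 lie close to the highest value in the 20 arrays, 16.64, and the part of that ceiling in their small differences was not tested. RPL37 has several probe sets, and with all of them averaged it read −0.47 and passed.

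Some of the ZFP36 binding sites of the same study hold an AU-rich octamer of the kind the protein is known to bind. In a separate experiment ZFP36 tagged with FLAG and HA was crosslinked to RNA in HEK293 cells, and the bound stretches were sequenced. Of 930 sites of at most 30 bases in 3′ UTRs in the rows of the site table used here, 88 held the octamer TATTTATT on the strand of the mRNA (9.46%). Shown are sites of the 8 largest falls and 3 largest rises among called genes with such a site. The sites were picked for the octamer, so that falling and rising mRNAs share it here by choice. Bases are written as DNA, 5′ to 3′, with the octamer in capitals. Positions on hg19 are as the site table gives them, where the end minus the start is the length, and whether the start counts from 0 is not given. The Wnt ligand WNT5A (chr3:55500212-55500236), the NADH hydrolase NUDT12 (chr5:102885618-102885644), CLDND1 (chr3:98234427-98234454), C21orf91 (chr21:19165345-19165369), the cargo receptor TMED5 (chr1:93618936-93618961) and the cell cycle inhibitor CDKN2B (chr9:22004883-22004906) lie on the minus strand. The phosphatase subunit PPP4R2 (chr3:73117065-73117087) and the caspase inhibitor XIAP (chrX:123042865-123042889) lie on the plus strand. The rises are the glucosylceramidase GBA2 (chr9:35736970-35736992), the fucosyltransferase POFUT2 (chr21:46683965-46683989) and the centrosome kinase NEK2 (chr1:211840154-211840179), all on the minus strand.
WNT5A: ctatacttttaaaaTATTTATTtt
NUDT12: tataatcattaccaatacTATTTATT
CLDND1: aactttaaaaaactTATTTATTTATTc
C21orf91: aattcatatcacctctTATTTATT
TMED5: tacaTATTTATTaaaaatttttatt
CDKN2B: ctttcttcttaaccTATTTATTt
PPP4R2: tttaatagttttaaTATTTATT
XIAP: caaatttatttTATTTATTtaatt
GBA2: aatcactTATTTATTtctttcc
POFUT2: acaTATTTATTctttttccatttg
NEK2: cttatttttattatcatTATTTATT

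Of the 26 called genes measured in both groups with the octamer in such a site, in the part of the sites used, 19 fell and 7 rose. Over all genes measured in both groups, 2423 fell and 3056 rose. How many tested genes hold such a site was not counted, so no share called is given. WNT5A read 10.57, 10.63, 10.68, 10.62 and 10.72 in mock-induced and 7.77, 7.83, 8.07, 7.84 and 8.04 in induced arrays, a 6.65-fold fall (−2.73, SE 0.0657, Bonferroni-adjusted p = 1.87e-09 in limma). NUDT12 fell by 2.52 on the log2 scale, CLDND1, whose site holds the octamer in 2 overlapping copies, by 2.31, and C21orf91 by 2.17. TMED5 fell by 2.16, CDKN2B by 2.01, PPP4R2 by 1.75 and XIAP by 1.63. GBA2 read 7.90, 7.73, 7.74, 7.69 and 7.65 in mock-induced and 9.10, 9.20, 8.98, 9.16 and 8.96 in induced arrays and rose 2.53-fold, POFUT2 rose 2.44-fold and NEK2 2.08-fold. The sites were chosen by the octamer and by the direction and size of these differences, so they are a description and no test of binding. Averaged over probe sets, the difference was −1.08 for CLDND1, −0.62 for TMED5, −1.03 for CDKN2B and −1.02 for XIAP, and NUDT12 (−1.18) and C21orf91 (−0.30) did not pass. NUDT12, CDKN2B and NEK2 did not pass with a separate spread for each group. On the poly-A scale, NEK2 (0.73) did not pass.

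Receptors and signal transducers at the cell surface showed more falls than rises. Of 29 tested receptors, SMADs and modulators of the TGF-beta and BMP pathways, 13 fell, 2 rose and 14 did not pass, with a median of −0.73 against 0.21 for all genes. SMAD2, which carries the TGF-beta signal to the nucleus, read 10.27, 10.30, 10.24, 10.30 and 10.11 in mock-induced and 7.74, 7.78, 7.94, 7.82 and 7.80 in induced arrays, a 5.39-fold fall. The type I receptor TGFBR1 went from 10.49, 10.33, 10.39, 10.45 and 10.47 to 8.01, 7.98, 7.89, 7.77 and 7.93, a 5.68-fold fall, and neither gene had overlapping groups. The members that rose were SMAD9 (1.17) and TGIF2 (0.95), the latter a repressor of SMAD-driven transcription. Among receptor tyrosine kinases 8 of 26 fell and 4 rose (median −0.48), with FGFR2 and the ephrin receptor EPHA7 down (−2.16 and −1.49) and ERBB3 and ERBB2 up (3.34 and 1.65). Of secreted growth factors and chemokines 7 of 17 fell and 0 rose (median −0.18); PDGFC (−2.79) fell, and CXCL16, at 5.71 ± 0.25 in mock-induced cells, was at background in every induced array. With every probe set of a gene averaged in, the difference was −1.02 for SMAD2, −0.77 for TGFBR1 and 0.82 for ERBB2. TGIF2 and CXCL16 did not pass with a separate spread for each group. Centred on the poly-A controls, TGIF2 (0.63) did not pass.

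Further down these routes, the kinase genes AKT1 and AKT2 moved apart. AKT1 read 8.76, 8.54, 8.49, 8.88 and 8.71 in mock-induced and 5.95, 6.18, 6.003, 6.08 and 5.77 in induced arrays and fell 6.41-fold, while AKT2 rose 2.38-fold from 10.83 ± 0.092 to 12.08 ± 0.066. In the PI3K pathway as a whole 6 of 20 fell and 5 rose (median −0.39), with the catalytic subunit PIK3CB down (−1.73) and the lipid phosphatase INPP4B up, from a mean of 4.19 ± 0.28, under the 4.5 line, to 7.21 ± 0.23. In the Hippo pathway, which restrains growth through the coactivators YAP1 and WWTR1, 8 of 28 fell and 3 rose (median −0.02); WWTR1 fell 5.42-fold and the kinase MAP4K4 6.74-fold, and the DNA-binding partner TEAD4 and the adaptor AJUBA rose 3.08-fold and 2.41-fold. Hedgehog genes leaned up, in that 3 of 15 fell and 6 rose (median 0.74). The coreceptor GAS1 (−2.79) and the receptor PTCH1 (−1.12) were among the falls, and DISP1, which releases the ligand from cells, rose (2.04) beside DISP2. Of axon guidance genes 6 of 33 fell and 6 rose (median −0.13, with 10 falls and 5 rises on the poly-A scale), EFNB2 and NRP1 falling (−1.87 and −2.07) and EFNB3 and PLXNB2 rising (2.84 and 1.23). On the mean of all probe sets per gene, the difference was −0.86 for PIK3CB, −1.09 for MAP4K4, −0.97 for GAS1 and 0.61 for PLXNB2, and NRP1 (−0.01) did not pass. PIK3CB, AJUBA and DISP1 did not pass with a separate spread for each group. AJUBA did not pass without induced replicate 1 or 4 or without mock-induced replicate 4 or 5 (1.23 to 1.26).

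Adhesion and actin genes showed more falls than rises, and tubulin genes more rises as deposited. The desmosomal cadherin DSC2 read 9.61, 9.59, 9.77, 9.77 and 9.81 in mock-induced and 6.31, 6.34, 6.27, 6.39 and 6.06 in induced arrays, a 10.8-fold fall, and its partner DSG2 fell 10.1-fold. Of tight junction and desmosome genes 8 of 20 fell and 5 rose (median −0.62), the rises including the polarity protein PARD3 (1.79) and cingulin, CGN (1.31). Among integrins and cadherins 9 of 28 fell and 5 rose (median 0.17, with a median of −0.16 on the poly-A scale). Integrin beta 1, ITGB1, the common partner of many alpha chains, fell 6.51-fold and ITGA8 went from 8.16 ± 0.075 to 4.31 ± 0.22, a mean under the 4.5 line, so that the size of its fall is not measured, whereas ITGB5 rose 2.34-fold and the cadherin CELSR3 3.88-fold. Of actin regulators 18 of 49 fell and 7 rose (median −0.14), among them the Arp2/3 subunit ARPC5 (−2.71) and the myosin light chain MYL12A (−3.16), with the formins DIAPH1 and DIAPH2 up (1.25 and 1.62). Of tubulin genes and microtubule proteins 8 of 34 fell and 13 rose (median 0.38, with 9 falls and 7 rises on the poly-A scale). The tubulin cofactor TBCA (−2.79) and the plus-end protein MAPRE1 (−1.90) fell, and another cofactor, TBCE (0.98), and TUBGCP4 of the gamma-tubulin ring (1.15) rose. When the probe sets of each gene were averaged, the difference was −1.16 for DSC2, −1.75 for ITGB1, −2.13 for ITGA8, −1.56 for ARPC5, −1.05 for MYL12A, 0.67 for DIAPH1 and −0.23 for DIAPH2, and TUBGCP4 (0.43) did not pass. On probe sets other than _s_at and _x_at, the difference was −2.31 for DIAPH2 and −0.29 for TUBGCP4, and ITGB5 (1.65) did not pass. DSG2 and ITGB5 did not pass with a separate spread for each group. On the poly-A scale, TBCE (0.66) did not pass.

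Among carriers and pumps, zinc transporters and P-type ATPases fell more often than they rose. SLC39A8, which brings zinc and manganese into cells, read 11.42, 11.32, 11.33, 11.43 and 11.41 in mock-induced and 7.95, 7.87, 7.79, 7.89 and 7.66 in induced arrays, 11.7-fold lower. Of zinc transporters and metallothioneins 9 of 20 fell and 2 rose (median −0.69); SLC39A6 fell 4.69-fold, and SLC39A3 and SLC39A7 rose 2.59-fold and 2.34-fold. Of P-type ATPases 6 of 19 fell and 1 rose (median −0.62), led by the calcium pump of the endoplasmic reticulum ATP2A2 (5.53-fold) and the lipid flippase ATP11B (5.36-fold), and the rise was ATP9B (1.07). Subunits of the V-ATPase, the proton pump of lysosomes, were split, in that 7 of 15 fell and 4 rose (median −0.59). ATP6V1A and ATP6V0A2 fell (−2.81 and −2.48), and ATP6V0D1 and ATP6V1B2 rose (1.68 and 1.26). Of ion channels 6 of 24 fell and 6 rose (median 0.28, with a median of −0.04 on the poly-A scale), the store-operated calcium channels ORAI1 and ORAI2 both rising (1.91 and 2.17) and the potassium channels KCNQ5 and KCNK1 falling (−1.51 and −1.38). Averaged over probe sets, the difference was −0.80 for SLC39A8, −1.48 for ATP2A2, −1.44 for ATP11B, 1.29 for ORAI2, −0.75 for KCNQ5 and −0.79 for KCNK1, and SLC39A3 (0.65) and ATP6V0A2 (−0.55) did not pass. When probe sets that end in _s_at or _x_at were left out, SLC39A3 (0.56) did not pass. SLC39A7, ATP9B and ORAI2 did not pass with a separate spread for each group. Centred on the poly-A controls, ATP9B (0.75) did not pass.

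**Figure D5:**
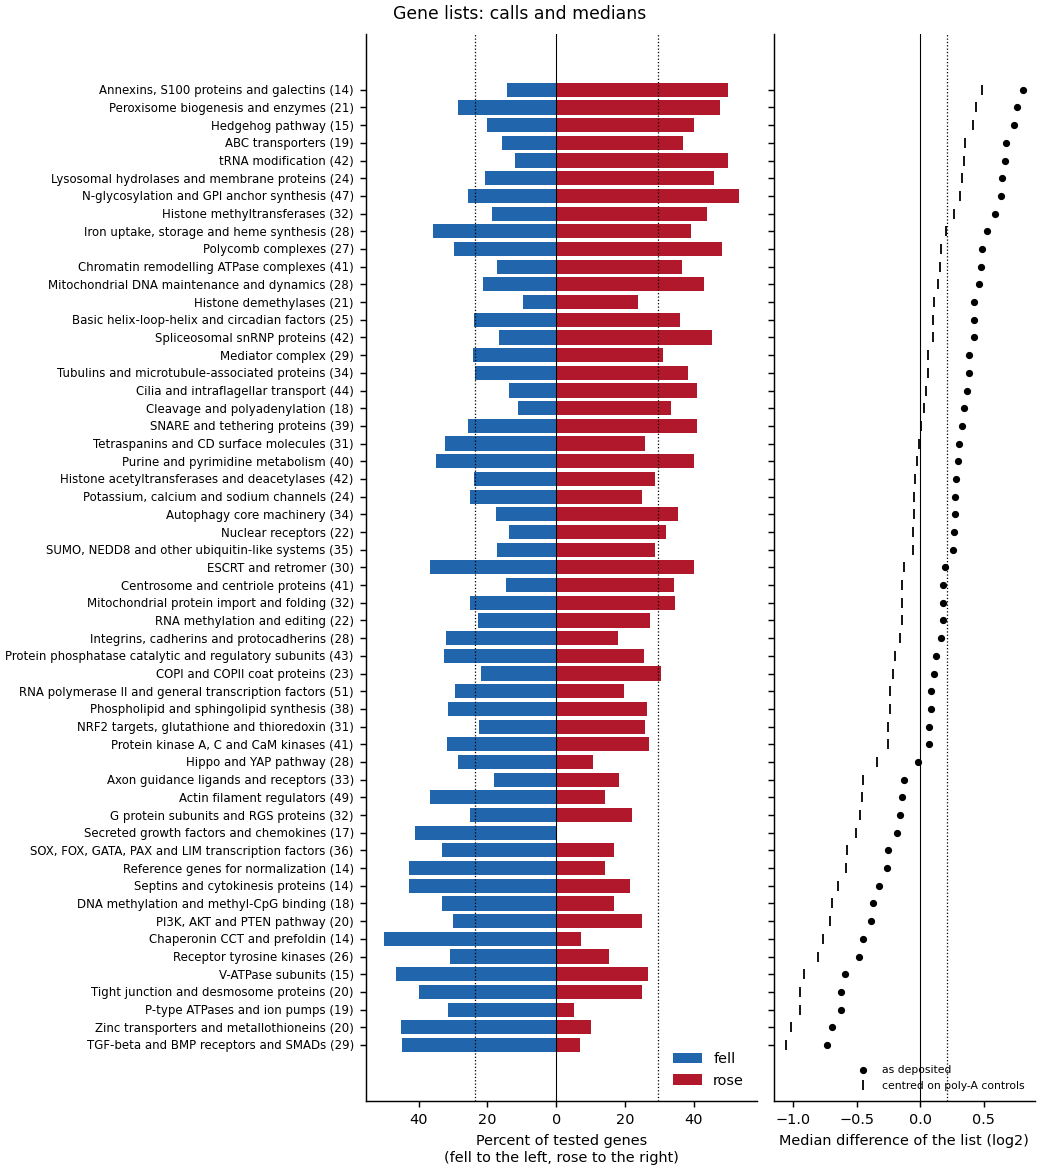
Left panel, percent of the tested genes of each list that fell (blue, to the left) and rose (red, to the right), with the number tested in brackets and dotted lines at the shares over all genes, 23.7% and 29.7%. Right panel, median difference of each list (log2) as deposited (dots) and with the arrays centred on poly-A controls (ticks), with the dotted line at 0.21; the TGF-beta and zinc transporter lists lie lowest and the annexin list highest.

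Genes of N-glycosylation and of lysosomal hydrolases and membrane proteins rose more often than they fell. Of 47 genes of N-glycosylation and GPI anchor synthesis, 12 fell, 25 rose and 10 did not pass (median 0.64). The mannosyltransferase ALG12 read 5.48, 5.41, 5.45, 5.23 and 5.41 in mock-induced and 7.49, 7.66, 7.44, 7.60 and 7.65 in induced arrays, a 4.51-fold rise, and PIGC rose 2.82-fold, while PIGK of the GPI transamidase fell 7.15-fold and the mannosidase MAN1A1 9.07-fold. Of lysosomal hydrolases and membrane proteins 5 of 24 fell and 11 rose (median 0.65). The proteases CTSA (2.09) and CTSB (1.19) rose and the membrane proteins LAMP2 (−2.82) and SCARB2 (−1.96) fell. CTSA read 9.36, 9.59, 9.43, 9.48 and 9.41 in mock-induced and 11.57, 11.64, 11.41, 11.62 and 11.49 in induced arrays. Among coat proteins of transport vesicles 5 of 23 fell and 7 rose (median 0.11, with 7 falls, 5 rises and a median of −0.21 on the poly-A scale); the COPII subunit SEC23A fell 11.1-fold and its partner in the same coat, SEC31A, rose 2.78-fold, while in the COPI coat ARCN1 fell 3.53-fold and COPZ1 rose 2.14-fold. Of annexins, S100 proteins and galectins 2 of 14 fell and 7 rose (median 0.81), ANXA11 and ANXA6 rising (1.20 and 1.23) and ANXA4 and ANXA5 falling (−1.36 and −0.74). With every probe set of a gene averaged in, the difference was −1.07 for LAMP2, −1.05 for SCARB2 and 0.61 for ANXA6. On probe sets other than _s_at and _x_at, the difference was 2.10 for ANXA11 and −2.24 for ANXA4, and PIGC (0.01) did not pass. ANXA6 and ANXA4 did not pass with a separate spread for each group.

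Metabolism and mitochondria held deep falls among mixed lists. PRDX3, the peroxiredoxin of mitochondria, read 14.60, 14.59, 14.56, 14.53 and 14.51 in mock-induced and 11.13, 11.04, 11.02, 11.09 and 11.13 in induced arrays, an 11.1-fold fall, and glutathione reductase, GSR, fell 10.9-fold. In their list of NRF2 targets and thiol enzymes 7 of 31 fell and 8 rose (median 0.07, with 9 falls, 4 rises and a median of −0.25 on the poly-A scale), with TXN2 (1.30) and GPX8 (1.52) among the rises. Of genes of nucleotide metabolism 14 of 40 fell and 16 rose (median 0.30, with 14 falls, 4 rises and a median of −0.02 on the poly-A scale), with the kinase CMPK1 down (−2.55) and the nucleotidase NT5C2 up (1.50). The salvage kinases for deoxynucleosides moved apart, DCK falling 12.4-fold and TK1 rising 3.86-fold, from 9.97, 10.08, 9.80, 9.80 and 9.75 to 11.87, 11.96, 11.73, 11.87 and 11.71. Of genes of lipid synthesis 12 of 38 fell and 10 rose (median 0.08, with a median of −0.24 on the poly-A scale), LPGAT1 (−2.91) and the ceramide synthase CERS6 (−2.95) down, LPCAT3 (1.28) and the sphingosine phosphate lyase SGPL1 (1.71) up. Of iron and heme genes 10 of 28 fell and 11 rose (median 0.52, with 10 falls and 7 rises on the poly-A scale), with ferrochelatase, FECH, the last step of heme synthesis, and the mitochondrial transporter ABCB10 down (−2.47 and −2.72), and PPOX, the step before FECH, and the iron-sulfur protein ISCA2 up (1.35 and 1.36). Of mitochondrial import genes 8 of 32 fell and 11 rose (median 0.18, with 9 falls, 6 rises and a median of −0.14 on the poly-A scale), with MTX2 (−2.60) and TOMM20 (−1.67) of the outer membrane down and OXA1L (1.62) and IMMT (1.30) of the inner membrane up. TFAM, which packs mitochondrial DNA, fell 4.29-fold in a list of mitochondrial DNA and dynamics genes where 6 of 28 fell and 12 rose (median 0.46, with 7 falls and 5 rises on the poly-A scale). The transcription factor GABPA fell too (−2.31), and the fission factor MFF (1.05) and the polymerase POLG (1.17) rose. On the mean of all probe sets per gene, the difference was −1.66 for PRDX3, −1.98 for GSR, −1.77 for CERS6, 0.77 for SGPL1, −1.33 for CMPK1, 0.75 for NT5C2, 0.42 for PPOX and −0.92 for TOMM20. GABPA and POLG did not pass with a separate spread for each group. On the poly-A scale, MFF (0.73) did not pass.

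Among subunits of the chaperonin CCT and of prefoldin, which fold actin and tubulin, falls outnumbered rises. Of 14 tested, 7 fell and 1 rose (median −0.45). PFDN2 fell 7.48-fold and CCT8 2.86-fold, and the rise was PFDN5 (0.68), which did not pass under either centring on control transcripts. When the probe sets of each gene were averaged, the difference was −0.81 for CCT8.

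In the machinery of gene expression, tRNA, splicing and histone methylation genes had more rises than falls as deposited, and general transcription factors more falls than rises. Of 42 tRNA-modifying enzymes, 5 fell, 21 rose and 16 did not pass (median 0.67), CDKAL1 and the Elongator subunit ELP2 rising 4.17-fold and 2.92-fold and TRMT13 falling 2.56-fold beside TRMT10A. Of spliceosomal snRNP proteins 7 of 42 fell and 19 rose (median 0.42), with SF3B6 (−2.27) and SNRPB2 (−1.44) among the falls and BUD31 (1.27) and SF3A1 (1.29) among the rises. Of histone methyltransferases 6 of 32 fell and 14 rose (median 0.59); SETD7 fell 6.21-fold and the arginine methyltransferase PRMT3 9.56-fold, and SMYD3 and KMT2E rose 2.74-fold and 3.21-fold. Of acetyltransferases and deacetylases of histones 10 of 42 fell and 12 rose (median 0.28, with 12 falls, 7 rises and a median of −0.04 on the poly-A scale), the deacetylases HDAC1 and HDAC2 falling (−1.24 and −2.12) and the acetylation factors KAT7 and ING4 rising (2.15 and 1.84). In DNA methylation 6 of 18 fell and 3 rose (median −0.37), with the thymine glycosylase TDG and the methyl-CpG binder MBD2 down 5.14-fold and 2.33-fold, and the binders ZBTB4 and MBD4 up (1.19 and 1.35). Of RNA polymerase II subunits and general factors 15 of 51 fell and 10 rose (median 0.09, with a median of −0.23 on the poly-A scale), the polymerase subunit POLR2K falling 11.2-fold and GTF2A1 5.49-fold, and the TFIID subunits TAF6 and TAF5 rising (1.47 and 1.40). Averaged over probe sets, the difference was 1.07 for CDKAL1, −0.31 for ELP2, −0.78 for TRMT13, −1.14 for SF3B6, −0.80 for SNRPB2, 0.63 for BUD31, −0.90 for SF3A1, −1.58 for SETD7 and −1.23 for GTF2A1. When probe sets that end in _s_at or _x_at were left out, the difference was −2.07 for SF3A1 and 0.93 for KMT2E, and ELP2 (0.38) did not pass. HDAC2 did not pass with a separate spread for each group.

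Cilium genes rose more often than they fell. Among them 6 of 44 fell and 18 rose (median 0.37), and IFT22 and IFT46 of intraflagellar transport rose 4.24-fold and 4.33-fold, while TTC8 and BBS7 of the BBSome coat fell 3.32-fold and 4.91-fold. Of SOX, FOX, GATA, PAX and LIM factors 12 of 36 fell and 6 rose (median −0.25). FOXQ1 was at 6.97 ± 0.041 in mock-induced cells and at background in every induced array, at least 5.53-fold lower. SOX4 fell by 1.92, and SOX12 and the homeobox factor PBX2 rose by 1.20 and 1.17. FOXQ1 was also at background in parental vehicle cells, at 2.71 ± 0.18. With every probe set of a gene averaged in, the difference was −1.26 for SOX4, 0.75 for SOX12 and 0.76 for PBX2. On probe sets other than _s_at and _x_at, PBX2 (0.02) did not pass. BBS7 and PBX2 did not pass with a separate spread for each group.

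In membrane traffic, the remaining lists held both directions. Of autophagy genes 6 of 34 fell and 12 rose (median 0.28, with a median of −0.05 on the poly-A scale). GABARAPL2, which coats autophagosomes, and the cargo receptor NBR1 fell 5.87-fold and 3.72-fold, while another cargo receptor, CALCOCO2, and the lipid kinase subunit ATG14 rose 2.67-fold and 3.84-fold. Of SNAREs and tethers 10 of 39 fell and 16 rose (median 0.33, with 13 falls and 11 rises on the poly-A scale), the vesicle SNAREs BET1 and VAMP3 falling (−2.75 and −1.59) and STX8 and the exocyst subunit EXOC7 rising (1.68 and 1.51). Of ESCRT and retromer genes 11 of 30 fell and 12 rose (median 0.19, with 12 falls, 4 rises and a median of −0.13 on the poly-A scale), with the ATPase VPS4B and its substrate CHMP2B down (−1.98 and −2.36) and VPS26B and SNX2 of retromer up (1.48 and 1.11). Of peroxisome genes 6 of 21 fell and 10 rose (median 0.76, with 6 falls and 3 rises on the poly-A scale); PEX19 and the fatty acid transporter ABCD3 fell (−2.17 and −1.50), and PEX26 and GNPAT, which starts ether lipid synthesis, rose (1.09 and 1.17). Of ABC transporters 3 of 19 fell and 7 rose (median 0.67), with ABCB10 and ABCD3 among the falls and the translation-related ABCF1 and ABCF3 among the rises (1.92 and 1.98). Of tetraspanins and CD molecules 10 of 31 fell and 8 rose (median 0.31, with a median of −0.01 on the poly-A scale), CADM1 and TSPAN13 falling (−1.98 and −2.71) and TSPAN15 and CD99L2 rising (2.21 and 1.58). On the mean of all probe sets per gene, the difference was −0.59 for NBR1, 0.92 for CALCOCO2, 0.84 for STX8, 0.89 for EXOC7, −0.69 for SNX2, −0.76 for ABCD3, 0.38 for PEX26, −0.72 for CADM1 and 0.88 for CD99L2, and PEX19 (−0.36) did not pass. When probe sets that end in _s_at or _x_at were left out, the difference was 0.69 for SNX2, and EXOC7 (0.50) did not pass. ABCF3 did not pass with a separate spread for each group. Centred on the poly-A controls, PEX26 (0.77) did not pass.

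Other chromatin and RNA-processing complexes had subunits on both sides. Of histone demethylases 2 of 21 fell and 5 rose (median 0.43, with 2 falls and 2 rises on the poly-A scale), PHF2 and KDM1B falling (−1.71 and −1.40) and KDM4A and KDM1A rising (1.60 and 1.07). Of polycomb genes 8 of 27 fell and 13 rose (median 0.49, with 10 falls and 6 rises on the poly-A scale), with RYBP and PCGF5 down (−1.43 and −2.22) and PHC1 and EED up (2.28 and 1.30). Of remodelling complexes 7 of 41 fell and 15 rose (median 0.48, with 9 falls and 8 rises on the poly-A scale); the ISWI ATPase SMARCA5 fell 7.59-fold and PBRM1 4.12-fold, and DPF2 and SMARCD1 of the BAF complex rose 3.03-fold and 2.55-fold. Of the mediator complex 7 of 29 fell and 9 rose (median 0.39, with 8 falls and 6 rises on the poly-A scale), CCNC and MED30 falling (−1.70 and −2.25) and MED8 and MED26 rising (1.51 and 1.61). Of cleavage and polyadenylation factors 2 of 18 fell and 6 rose (median 0.35, with 4 falls and 3 rises on the poly-A scale). NUDT21, the CFIm subunit that binds UGUA upstream of poly(A) sites, fell 5.68-fold, and of the CstF complex CSTF3 fell (−0.90) while CSTF2 and CSTF1 rose (1.49 and 1.00). Of RNA methylation and editing enzymes 5 of 22 fell and 6 rose (median 0.18, with 6 falls, 4 rises and a median of −0.14 on the poly-A scale), the cytosine methyltransferase NSUN2 and the pseudouridine synthase TRUB1 falling (−2.42 and −2.72) and VIRMA of the m6A writer and PUS3 rising (1.45 and 1.45). When the probe sets of each gene were averaged, the difference was −0.86 for PHF2, −0.70 for KDM1B, −1.03 for PCGF5, −1.28 for PBRM1, −1.37 for MED30, −1.24 for NUDT21, −0.59 for CSTF3, 0.77 for CSTF2 and −0.98 for TRUB1, and EED (0.65), CCNC (−0.53), MED26 (0.77) and VIRMA (0.03) did not pass. On probe sets other than _s_at and _x_at, the difference was 0.043 for CSTF3. PBRM1 did not pass with a separate spread for each group. On the poly-A scale, KDM1A (0.75) and CSTF1 (0.68) did not pass.

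Septin genes split by family member. SEPTIN10 and SEPTIN11 fell 6.48-fold and 4.27-fold, and SEPTIN9 and SEPTIN6 rose 2.35-fold and 2.40-fold, in a list of septins and cytokinesis proteins where 6 of 14 fell and 3 rose (median −0.32). Of centrosome genes 6 of 41 fell and 14 rose (median 0.18, with a median of −0.14 on the poly-A scale), with centrin 3, CETN3, and HAUS6 of the augmin complex down (−2.54 and −2.06) and the satellite proteins PCM1 and OFD1 up (1.51 and 1.51). Of ubiquitin-like systems 6 of 35 fell and 10 rose (median 0.26, with 7 falls, 2 rises and a median of −0.06 on the poly-A scale); COPS8 of the COP9 signalosome and the NEDD8 ligase DCUN1D1 fell (−2.61 and −1.57), and the SUMO ligase PIAS1 and the UFM1 protease UFSP2 rose (1.93 and 1.14). Averaged over probe sets, the difference was −1.34 for HAUS6, −0.32 for PCM1 and 1.13 for PIAS1. When probe sets that end in _s_at or _x_at were left out, the difference was −2.16 for PCM1 and −3.35 for DCUN1D1, and OFD1 (0.83) and PIAS1 (0.51) did not pass. SEPTIN11 and SEPTIN6 did not pass with a separate spread for each group.

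Intracellular signalling subunits included some of the deeper falls. PPP1R14C, an inhibitor of protein phosphatase 1, fell by 4.02 and PPP2CB, a catalytic subunit of phosphatase 2A, 5.95-fold, and the regulatory subunits PPP2R3C and PPP4R3A rose (1.69 and 1.20). Of protein phosphatase genes 14 of 43 fell and 11 rose (median 0.13, with a median of −0.20 on the poly-A scale). Of A, C and CaM kinases 13 of 41 fell and 11 rose (median 0.07, with a median of −0.25 on the poly-A scale); the regulatory subunit PRKAR2B and CAMK4 fell (−3.32 and −3.48), and PRKAB2 of AMP-activated kinase and the atypical PRKCZ rose (1.88 and 1.42). Of G protein and RGS genes 8 of 32 fell and 7 rose (median −0.16), GNB4 and GNG12 falling (−3.04 and −2.59) and RGS7 and RGS2 rising (1.61 and 1.66). Of nuclear receptors 3 of 22 fell and 7 rose (median 0.27, with 5 falls, 4 rises and a median of −0.06 on the poly-A scale), with NR2F1 and PPARG, the fat cell regulator, down (−1.69 and −1.68) and NR1H3, which senses oxysterols, and NR6A1 up (1.20 and 1.78). Of bHLH and circadian factors 6 of 25 fell and 9 rose (median 0.43, with 6 falls and 5 rises on the poly-A scale); the dioxin receptor AHR and HEY1 fell (−2.15 and −1.46), and NFIL3 and TIMELESS rose (2.37 and 1.49). With every probe set of a gene averaged in, the difference was 1.11 for PPP2R3C, −1.37 for CAMK4, −1.72 for GNB4, 1.06 for RGS7 and 0.77 for NR6A1. RGS2 and HEY1 did not pass with a separate spread for each group.

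Centred on the poly-A controls, the medians of the TGF-beta, zinc transporter, P-type ATPase, junction and V-ATPase lists lay between −1.06 and −0.91, and those of the annexin, tRNA, lysosomal and N-glycosylation lists between 0.32 and 0.49. The counts of falls and rises then were 20 and 1 for the TGF-beta list, 11 and 2 for zinc transporters, 6 and 10 for tRNA modification, 12 and 14 for N-glycosylation and 7 and 8 for spliceosomal proteins. On averaged probe sets the TGF-beta list had 7 falls and 2 rises (median −0.30), the zinc transporter list 5 and 2 (−0.20) and the junction list 6 and 7 (−0.33). The order also turned for nucleotide metabolism (15 and 10) and for bHLH and circadian factors (7 and 4). The sign of the median turned for DNA methylation (3 and 3, 0.35), integrins and cadherins (−0.13), ion channels (3 and 4, −0.08) and protein phosphatases (−0.20). Falls and rises were equal in number for ESCRT, PI3K, nuclear receptor and NRF2 genes, and 4 and 6 for axon guidance.

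Lists also turned on probe sets other than _s_at and _x_at, over fewer genes. Falls then outnumbered rises for SNARE (11 and 10, median −0.08), ESCRT and retromer (9 and 5, −0.50), tubulin (7 and 5, −0.03), NRF2 (7 and 5, −0.06), ubiquitin-like (8 and 4, 0.17) and axon guidance genes (5 and 4). Rises outnumbered falls for PI3K genes (4 falls and 5 rises) and ion channels (4 and 6). The counts were equal for coat protein (median −0.20), peroxisome, mitochondrial DNA, histone methyltransferase, demethylase, acetylation, spliceosomal, RNA methylation and iron genes. The median turned below 0 for integrins and cadherins (−0.55), lipid synthesis (−0.26), protein phosphatases (−0.31), bHLH and circadian factors (−0.12) and tetraspanins and CD molecules (−0.13).

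Among genes often used to normalize measurements, falls outnumbered rises. Of 14 such genes tested, 6 fell, 2 rose and 6 did not pass (median −0.26). Over all tested genes 53.4% passed, with 23.7% falling and 29.7% rising, so being called is not particular to this set. HPRT1, an enzyme of purine salvage, read 14.21, 14.26, 14.25, 14.25 and 14.19 in mock-induced and 12.60, 12.53, 12.58, 12.46 and 12.42 in induced arrays, a 3.27-fold fall, and TOP1, the DNA topoisomerase, fell 3.46-fold. GUSB and CYC1 rose (0.65 and 0.64), and neither passed with the arrays centred on the hybridization controls. On the mean of all probe sets per gene, the difference was −0.86 for HPRT1, and GUSB (0.33) did not pass. GUSB and CYC1 did not pass with a separate spread for each group. Centred on the poly-A controls, GUSB (0.33) and CYC1 (0.32) did not pass. CYC1 did not pass without induced replicate 1, 2 or 3 or without mock-induced replicate 1 or 3 (0.63 to 0.64).

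A gene's direction could depend on which of its probe sets was read. Of 4859 genes with at least 2 tested probe sets, 187 had a probe set that rose and another that fell (3.85%), against 1600 with 2 or more called in the same direction. Over all 18316 tested probe sets 8297 were called (45.3%). In EIF3H, an initiation factor subunit, the brightest probe set rose by 0.80 from 12.61 ± 0.051 to 13.41 ± 0.038, and another fell by 5.42 from 8.42 ± 0.075 to 3.002 ± 0.47 (log2, n = 5 arrays each). In RIC1, a regulator of transport to the Golgi, a probe set rose by 4.004, from 3.24 to 7.25, and another fell by 1.48. ZDHHC2 (1.0985 and −4.85), QRSL1 (1.34 and −4.02), PLAA (0.91 and −4.33) and SF3A1 (1.29 and −3.73) are the others of the 6 widest gaps as read. One group mean lay under the 4.5 line in EIF3H (3.002), RIC1 (3.24), PLAA (3.68) and ZDHHC2 (4.26), so that the sizes and the order of these gaps rest on values at background. On the poly-A scale, the brightest probe sets of EIF3H (0.48) and PLAA (0.59) did not pass. With a separate spread for each group, those of RIC1 (−1.18), QRSL1 and PLAA did not pass. That both groups of each of these probe sets stood apart by more than their spread follows from how they were chosen. The largest parental difference in the rising and falling probe sets compared in the 187 genes was 0.63. Where in the transcript each probe set lies was not analysed here, and whether the pairs read different 3′ ends was not tested. With probe sets ending in _s_at or _x_at left out, 89 of 2566 genes were called both ways (3.47%). Of the genes named here, RPL37, NEFL, SNX2 (−0.69), ELP2 (−0.31), PCM1 (−0.32) and DIAPH2 (−0.23) also had a negative difference with all probe sets averaged, although the brightest probe set of each read upward.

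Of 8 tested markers of the line, 2 fell, 3 rose and 3 did not pass. Their median was 0.06, and on the poly-A scale falls and rises were 3 and 2 (median −0.27), on the hybridization scale 2 and 2 (−0.06) and with averaged probe sets 2 and 1 of 6 tested (−0.31). The RNA-binding protein LIN28B read 12.19, 12.14, 12.27, 12.31 and 12.26 in mock-induced and 9.30, 9.28, 9.25, 9.19 and 9.10 in induced arrays and fell 8.06-fold with SOX4, while the neurofilament genes NEFL (0.63) and NEFM (3.87 ± 0.28 in mock-induced and 5.81 ± 0.39 in induced cells, named after its values were seen) and PAX2 rose. PAX2 entered the range from background, at 4.86 ± 0.44 in induced cells. Vimentin, VIM, HMGA2 and N-cadherin, CDH2, were measured and did not pass. KRT8, KRT18, NES and SOX11 were not among the tested genes. None of 21 blood cell markers was among the tested genes, 15 of them with a probe set of their own. Of 16 fibroblast and endothelial markers 2 were tested, and both rose, COL3A1 from 5.34, 4.71, 4.75, 5.13 and 5.50 to 8.43, 8.18, 8.05, 8.09 and 8.10 and COL1A1 from 6.55, 6.64, 7.22, 6.86 and 6.92 to 9.16, 9.15, 9.35, 8.92 and 9.16. The others, with PECAM1 and VWF of endothelial cells among them, were not above 4.5 in either group, and the part of other cells in the collagen values was not tested. When the probe sets of each gene were averaged, the difference was −0.17 for NEFL. PAX2, NEFL, NEFM, COL3A1 and COL1A1 did not pass with a separate spread for each group. On the poly-A scale, NEFL (0.30) did not pass. NEFL did not pass without induced replicate 2 or 5 or without mock-induced replicate 1, 2 or 4 (0.61 to 0.62). NEFM did not pass without induced replicate 1, 2 or 3 or without mock-induced replicate 1, 2, 3, 4 or 5 (1.82 to 1.99).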

How the data were processed

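RNA of 20 samples was hybridized to Affymetrix U133 Plus 2.0 arrays after 3′ in vitro transcription labelling. The authors deposited log2 values per probe set after GCRMA background correction and normalization. From 50441 probe sets, 38070 name exactly 1 gene in the platform annotation, 1423 name several and were left out, and 10886 name none. The brightest probe set over the 20 arrays stood for each of 19353 genes. Groups were compared with lmFit and eBayes of limma 3.58.1 in R 4.3.3, without a replicate block, over 10669 genes with a mean over 4.5 in either group, with calls made at a Bonferroni-adjusted p under 0.01. The threshold and filter follow the study's methods, which do not name the test. Parental arrays were fitted the same way, and an interaction term was tested over all 20 arrays. Single measures per array were compared with exact permutation tests, two-sided, whose smallest p is 0.00794 for 5 against 5 arrays. Arrays give no read depth, and their number limits the precision. Whether samples of a group came from separate cultures is taken from the methods, and p-values measure the spread between these arrays. The fits were tested on simulated data. Python 3.11.15, pandas 2.3.3 and scipy 1.17.1 were used.

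Named are the 10 largest falls and rises measured in both groups, the 8 brightest genes switched off and on (all arrays under 4.5 in 1 group and over 6 in the other), the 6 brightest falls and rises, the 6 brightest genes whose 95% interval lies within 0.25 of 0, up to 2 falls and 2 rises with the smallest p in each of 58 gene lists (1 more is not reported here), the 6 widest gaps between probe sets, and markers over 4.5. The 10 largest falls and rises were taken from called genes whose groups of arrays do not overlap. Members and lists were chosen with earlier results of these data known. SNX2, PCM1, DIAPH2, ELP2 and SF3A1 come from the lists. The ZFP36 and NEFM probe sets and the genes of the binding sites were added after their values were seen. Spans come from RefSeq for 10662 genes, and site sequences from the study's table of ZFP36 sites, used in part.

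Alternatives were a replicate block, averaged probe sets, no probe sets ending in _s_at or _x_at, no filter or a filter at 6, arrays centred on hybridization controls, poly-A controls or the median of tested genes, an eBayes trend, a separate spread per group, all 20 arrays in 1 model, Benjamini-Hochberg adjustment, and leaving out each array in turn. Probe sets that name no gene were tested after the data were seen.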

Additional observations from a re-analysis of the deposited data

Results flagged for a closer look

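In groups of 5 arrays, the highest or lowest array was looked at for a gap over 0.71 of the group's range to the nearest array. Of 576 groups of named genes, 38 had one, where chance gives about 1 in 20, or 28.8. The wider gaps in induced arrays were MOB4 with 4.62 in replicate 5 (next 5.98), STK39 with 5.73 in replicate 4 (next 6.89), FAM161B with 8.51 in replicate 4 (next 8.83), INHBE with 7.52 in replicate 3 (next 7.03), EFNB3 with 8.57 in replicate 1 (next 8.22), ABCB10 with 9.15 in replicate 4 (next 9.48) and ZFP36 with 4.56 in replicate 3 (next 5.48). The wider gaps in mock-induced arrays were FAM161B with 4.97 in replicate 4 (next 5.29), IL27RA with 5.33 in replicate 5 (next 5.66) and RHEBL1 with 3.28 in replicate 3 (next 2.74). With a gap under 0.3, the lowest induced array stood apart for ORAI2 (10.45), KCNQ5 (7.20), TUBGCP4 (10.59), EXOC7 (11.12), HAUS6 (9.30) and DCUN1D1 (7.84). With a gap under 0.3, the highest induced array stood apart for RPLP1 (16.61), ANXA5 (11.998), FOXQ1 (2.71), GABARAPL2 (10.59), STX8 (12.09) and NUDT21 (11.05). With a gap under 0.3, the lowest mock-induced array stood apart for DISP2 (2.20), ITGB1 (13.46), ALG12 (5.23), TOMM20 (14.68), MBD2 (11.33), PAX2 (2.76), CD99L2 (7.98), PHF2 (9.22) and KDM1A (10.51). With a gap under 0.3, the highest mock-induced array stood apart for XRCC6 (14.32), PLXNB2 (8.92), MYL12A (11.21), TFAM (12.14), ING4 (8.09), EIF3H (12.70) and PRKCZ (8.43). Their part in the calls is covered by leaving out each array in turn.

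The response to doxycycline differed between the EGFP-ZFP36 line and parental cells for 5210 of 10669 genes in limma's interaction test (Bonferroni-adjusted p under 0.01).

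Probe sets that name no gene, outside the comparison of genes, also changed. Of 2007 with a mean over 4.5 in either group 674 passed (33.6%), 433 downward and 241 upward, with a median difference of 0.04, and none passed in parental cells. Their sequences were not analysed here.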

How the results depend on the processing

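The count of 5700 calls was 2913 with a separate spread per group (1272 falls, 1641 rises), 9440 at a Benjamini-Hochberg adjusted p under 0.05 (3988 and 5452), and 674 over probe sets that name no gene, an alternative chosen after seeing the data. Centring on the poly-A controls left 2004 rises. The median difference of 0.21 was 0.16 with averaged probe sets, 0.10 leaving out _s_at and _x_at probe sets, 0 with no filter, 0.10 centred on hybridization controls and −0.11 centred on poly-A controls. Falls over 4-fold, 671, were 404 with averaged probe sets and 440 with a separate spread. Rises over 4-fold, 207, were 121 with averaged probe sets and 90 centred on poly-A controls. The interaction count of 5210 was 3295 centred on hybridization controls, and 187 genes called both ways were 89 leaving out _s_at and _x_at probe sets, with fewer genes tested. The cause was not tested otherwise. Leaving out each array in turn gave 4985 to 5266 calls (2244 to 2383 falls, 2739 to 2934 rises), and 4818 genes were called every time, 273 of the 281 called genes named here among them. No parental gene passed under any alternative run.

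With the replicate number as a block 4053 genes passed (1842 falls, 2211 rises) and the interaction count was 4178. The deviations of arrays with the same number correlated at 0.148, 0.00788, 0.137, 0.23 and 0.19, and 3 of 5 correlated best with their own number. These values do not settle whether the numbers pair the samples. The methods describe repeats on separate days and, in the passage on parental cells, pairs of treated and untreated cells. No source used here says that a number stands for a day. The fit without the block was kept as the main one, and the block gave fewer calls. Of 281 called genes named here the block lost 19 (SUSD4, RAN, H2AZ1, SRP9, EIF3L, MORF4L1, PARK7, RPL22, XRCC6, TGIF2, ANXA5, PFDN5, GUSB, CYC1, PAX2, NEFL, PLAA, AJUBA and KDM1B, Bonferroni-adjusted p of 0.0109 to 0.295 in limma).

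With averaged probe sets the difference turned to −0.47 for RPL37, −0.90 for SF3A1, −0.31 for ELP2, −0.17 for NEFL, −2.31 for EIF3H, 0.98 for RIC1, −0.91 for QRSL1, −2.27 for PLAA, −0.23 for DIAPH2, −0.32 for PCM1 and −0.69 for SNX2. Leaving out _s_at and _x_at probe sets it turned to −2.07 for SF3A1, −4.02 for QRSL1, −4.33 for PLAA, −2.31 for DIAPH2, −2.16 for PCM1, −0.29 for TUBGCP4 and 0.043 for CSTF3. Over all called genes 36 were called the other way with averaged probe sets and 57 leaving out _s_at and _x_at probe sets. With no filter MOB4, SUSD4, CYC1, PAX2, NEFL, NEFM, RIC1, PLAA and AJUBA did not pass. Centred on hybridization controls RAN, EIF3L, MORF4L1, PARK7, RPL22, XRCC6, RNPS1, PFDN5, GUSB, CYC1, NEFL and PLAA did not pass, each with an unchanged direction.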
